A study of Homo sapiens with 12 samples.

Results

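The baseline transcriptome of T24 cells was described from the 3 libraries of cells given the negative control siRNA (siNC), out of 12 libraries in the series. T24 is an established human cell line grown out of a transitional cell carcinoma of the urinary bladder, and the labels give its genotype as wild type, meaning that no gene was edited. The study knocked down FDPS, SQLE or YY1 with siRNAs in the same line, 3 libraries each, to ask what these genes do in bladder cancer. The siNC cells were transfected as well, so every value below is the level in transfected cells with a non-targeting siRNA and not in untouched cells. The labels and the design text give the 3 siNC libraries as biological replicates from independent experiments of 1 cell line. They were chosen by label alone, and no knockdown library enters any value.

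A cultured carcinoma line keeps only part of the program of its tissue of origin. Normal urothelium is a layered epithelium in which basal cells express high-molecular-weight keratins and TP63, and superficial umbrella cells make uroplakins that form plaques in the luminal membrane. Bladder cancers are commonly sorted by how much of the luminal, basal or mesenchymal part of this program they keep.

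The libraries held 48679901, 60728086 and 51035896 counts. The level of a gene is given in TPM, the usual length-corrected share of all transcripts in a library: each transcript's count was divided by its length, summed over the transcripts of a gene and scaled so that every library has the same total, so that levels can be set against each other between genes of different length. Where values of 3 libraries are listed, they are libraries 1, 2 and 3 in that order, and ± is the SD over the 3 (n = 3). On the log2(TPM + 1) scale, Pearson's r over 19951 protein-coding genes lay between 0.993 and 0.994 for the 3 pairs of libraries. It is across genes, which are not independent replicates. The gene counts of each pair differed by much more than sampling noise (chi-square over degrees of freedom of 51.9 to 60.3), so no library was a copy of another.

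A gene was taken as expressed where it reached a TPM of at least 1 in each of the 3 libraries. By this rule 11934 of 19951 protein-coding genes (59.8%) were expressed. The gene lists below were chosen with earlier results of these data known, so their shares describe the lists and are not tests. At the other end, 2718 protein-coding genes (13.6%) had no count in any library, and 4237 (21.2%), these included, had at most 3 counts in each library. A count of 0 in all 3 libraries allows up to 3 counts of 160443883, or 0.0187 CPM, where CPM is the count scaled to the library total. Such limits cover counting error only. The levels of protein-coding genes therefore fell into an expressed mode with a median of 24.1 TPM, a tail of 3780 low genes and a block without counts. Of 14994 long noncoding RNA genes 1447 (9.65%) were expressed, and of 10672 processed pseudogenes 691 (6.47%).

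**Figure D1:**
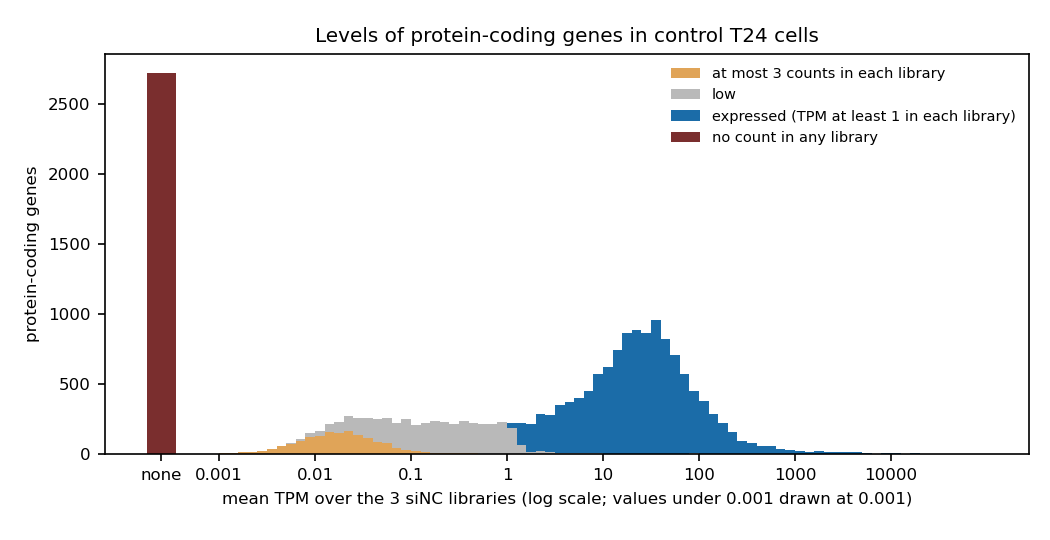
Number of protein-coding genes (vertical axis) by mean TPM over the 3 siNC libraries (horizontal axis, log scale), with the 2718 genes without a count as a bar of their own at the left. The 11934 expressed genes form the blue mode around 24.1 TPM, and genes with at most 3 counts in each library lie at the far left.

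A small set of genes held much of the RNA. The 100 highest genes held 33.7 ± 0.590% of the TPM, and between 358 and 402 genes held 50%. Without the division by length the share of the 100 highest was 20.2%. Protein-coding genes together held 91.9 ± 0.177%. The 13 protein-coding genes of the mitochondrial genome, which encode subunits of the respiratory chain and ATP synthase, held 9.30 ± 0.120% of the TPM and 4.26 ± 0.0114% of the counts. MT-CO1, a catalytic subunit of cytochrome c oxidase, was the highest gene of all at 18291, 18898 and 18166 TPM. MT-CO3 followed at 12514, 11589.5 and 13135 TPM and MT-CO2 at 11835, 11370.2 and 10922 TPM, and the ranges of these 2 genes overlapped while both lay below MT-CO1. The lowest of the 13 on average was MT-ND6 at 1741, 1673 and 1879 TPM, the only one encoded on the light strand, next to MT-ATP6 at 1797, 1936 and 1827 TPM, and the ranges overlapped. MT-ATP8 (10300.4 ± 199 TPM) overlaps MT-ATP6 and MT-ND4L (8907 ± 1051 TPM) overlaps MT-ND4 on the same strand, so how reads were shared within these gene pairs is uncertain. MTATP6P1, a pseudogene copy of MT-ATP6 on chromosome 1, was listed at 1407, 1454 and 1488 TPM, so the place of MT-ATP6 in this order is uncertain too.

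Among nuclear genes ribosomal proteins were the most frequent at the top of the list. Of the 30 highest nuclear protein-coding genes 21 encode cytosolic ribosomal proteins. The 87 ribosomal protein genes, 85 of them expressed, held 14.9 ± 0.548% of the TPM and 6.92 ± 0.328% of the counts, led by RPL41 at 5581, 5670.1 and 6198 TPM. RPL39 was at 4599.6, 4838 and 4989 TPM and RPL12 at 4761, 4864 and 4750.5 TPM. EEF1A1, the elongation factor that delivers aminoacyl-tRNA to the ribosome, was the highest nuclear gene at 9300.3, 9959 and 10438 TPM (gene ENSG00000156508, chr6:73515750-73523797, GRCh38). FTH1 and FTL, the heavy and light chains of the iron store ferritin, were at 8883, 9082 and 9518 TPM and 5832, 6151 and 5825 TPM. GAPDH, a glycolytic dehydrogenase, was at 9117, 9518 and 8253 TPM, and its range overlapped those of EEF1A1 and FTH1 but not that of FTL. Below these came TMSB10, a small actin-sequestering protein, at 4394, 4109 and 4691 TPM and LGALS1, the lectin galectin-1, at 2552, 2792 and 2642 TPM. Ribosomal protein genes have many near-identical processed pseudogenes. RPL9P9, for example, was listed at 2862, 2634 and 3237 TPM against 965, 885 and 1136 TPM for RPL9, and EEF1A1P5 at 1799, 1898 and 2025 TPM, so the split between such copies is uncertain.

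The luminal urothelial program was present in its simple keratins and some of its transcription factors, while its uroplakins were under the threshold. Of 24 luminal markers 11 were expressed (45.8%, against 59.8% of all protein-coding genes) with a median of 0.907 TPM (all protein-coding genes 6.13 TPM). KRT7, a keratin of simple and transitional epithelia, was at 999, 1024 and 958 TPM (ENSG00000135480, chr12:52232520-52252186, GRCh38). The keratins of simple epithelium KRT8, at 617, 598 and 522 TPM, and KRT18, at 404, 403 and 489.6 TPM, came next, with no overlap between the 3 keratins. KRT19 was at 37.7, 43.8 and 39.04 TPM, below the range of ERBB2, a receptor tyrosine kinase often amplified in luminal tumours, at 62.1, 62.3 and 49.7 TPM. PSCA, a surface antigen of the list, was at 16.4, 21.1 and 14.7 TPM.

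Among luminal transcription factors the levels fell over more than an order of magnitude. PPARG, the nuclear receptor that drives urothelial differentiation, was at 32.00, 28.6 and 27.8 TPM. FOXA1, a pioneer factor, was at 18.3, 17.1 and 15.5 TPM, KLF5 at 10.6, 13.8 and 14.7 TPM and ELF3 at 9.93, 9.89 and 8.16 TPM. GATA3, a factor widely used to mark urothelial origin, did not meet the rule, with 0.775, 1.52 and 0.803 TPM from 59, 71 and 65 counts, and only library 2 was above 1. In CPM it was at 1.21, 1.17 and 1.27, so the higher TPM of library 2 rests on how its reads were divided among transcripts. GRHL3, a factor of the umbrella cell program, had 2, 0 and 0 counts.

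The uroplakins, the plaque proteins of umbrella cells, did not meet the rule for expressed genes. UPK1B and UPK3A had no count in any library. UPK1A had 0, 0 and 7 counts, UPK2 15, 11 and 23 counts, which is 0.642, 0.380 and 0.926 TPM, and UPK3B 11, 9 and 17 counts. KRT20, the keratin of umbrella cells, had 9, 3 and 3 counts, and SNX31 and VGLL1, further luminal markers, had none. FGFR3, a receptor often mutated in luminal papillary tumours, had 68, 85 and 38 counts or 0.883, 0.803 and 0.599 TPM, below the threshold in each library.

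The basal program was likewise partial: CD44, EGFR and SFN were high, while KRT5, KRT14, KRT6A and KRT6B had no count. Of 20 basal and squamous markers 9 were expressed (45%, against 59.8% of all protein-coding genes), with a median of 0.532 TPM (all protein-coding genes 6.13 TPM). CD44, a hyaluronan receptor, was at 336, 490.0 and 389 TPM and EGFR, the epidermal growth factor receptor, at 280.1, 328 and 254 TPM. The leading CD44 transcript, ENST00000531118 of 877 bases, held 178, 186 and 138 TPM of this. Without the division by length EGFR was the higher, at 1341, 1550 and 1232 CPM against 235, 315 and 225 CPM for CD44. The order of the 2 genes thus depends on how reads were divided among transcripts. SFN, the epithelial 14-3-3 protein, was at 131, 117 and 112 TPM and DSC3, a desmosomal cadherin of stratified epithelia, at 40.7, 38.2 and 40.4 TPM. KRT10, a keratin of differentiating epidermis, was at 37.5, 13.3 and 23.3 TPM. In contrast to these, TP63, the master factor of basal cells, had 9, 4 and 1 counts over the libraries. KRT17 was just above the threshold at 1.87, 1.42 and 1.64 TPM. DSG3, a desmosomal partner of DSC3, had 3, 0 and 0 counts, so these members of 1 junction lay at opposite ends of the list.

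Keratins as a family ranged as widely. Of 55 keratin genes found by symbol 11 were expressed (20%, against 59.8% of all protein-coding genes). Of the 55, 35 had at most 3 counts in each library, against 21.2% of all protein-coding genes. KRT80, a keratin of low tissue restriction, was at 108, 167 and 139 TPM, between KRT18 and KRT19, and KRT15 was at 12.7, 11.6 and 9.38 TPM. These 2 genes lie outside the chosen lists and were named after their values were seen.

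Both the epithelial and the mesenchymal list held genes at high levels and genes near 0. Of 23 epithelial genes 14 (60.9%) were expressed with a median of 2.80 TPM. Of 20 mesenchymal genes 14 (70%) were, with a median of 16.7 TPM, against 59.8% of all protein-coding genes with a median of 6.13 TPM. The mesenchymal list summed to 4215, 4329.8 and 4069 TPM and the epithelial list to 1436, 1513 and 1462 TPM. VIM alone held 1897 TPM of the mesenchymal sum on average. The keratins KRT7, KRT8, KRT18 and KRT19 count in the luminal list and not in the epithelial sum, so the sums depend on list membership. VIM, the intermediate filament vimentin of mesenchymal cells, was at 1952, 1989 and 1749 TPM (ENSG00000026025, chr10:17228259-17237593, GRCh38), above KRT7 in every library. The matrix glycoprotein FN1 was at 668, 874 and 708 TPM, the caveolar protein CAV1 at 476, 384 and 496 TPM and SPARC, a matricellular protein, at 372, 331 and 405 TPM. MSN, moesin, which ties actin to the membrane, was at 318, 328 and 287 TPM. At the low end of the mesenchymal list, the transcription factor FOXC2 was at 2.88, 3.73 and 4.03 TPM, THY1 had 0, 2 and 8 counts and PRRX1 0, 6 and 3.

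Cadherins of either kind were high or low. CDH2, N-cadherin, was at 101, 100.4 and 102 TPM, while CDH1, E-cadherin, had 5, 9 and 4 counts, or 0.0419, 0.172 and 0.161 TPM. CDH11, another mesenchymal cadherin, had 0, 0 and 7 counts, and CDH3, P-cadherin of basal epithelium, was at 1.19, 0.983 and 0.741 TPM. The catenins that bind either cadherin were all expressed, with CTNNB1 at 280.4, 297 and 280.0 TPM, CTNNA1 at 254, 331 and 258 TPM and CTNND1 at 64.95, 69.9 and 117 TPM, the last with library 3 apart from the others. Of the plaque proteins, JUP, plakoglobin, was at 61.5, 66.4 and 54.8 TPM and TJP1, a tight junction scaffold, at 39.7, 40.7 and 36.5 TPM.

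Among repressors of epithelial genes, SNAI2 was at 20.4, 15.5 and 22.9 TPM, ZEB1 at 13.2, 10.9 and 16.9 TPM and ZEB2 at 11.9, 7.75 and 13.8 TPM, with library 2 lowest in TPM for all 3. In CPM library 2 was lowest for SNAI2 and ZEB1 but not for ZEB2, at 20.7, 27.5 and 32.9 CPM. SNAI1 had 23, 26 and 13 counts and stayed under the threshold, and TWIST1 and TWIST2 had none. GRHL2, an activator of epithelial genes that opposes ZEB1, had no count. The epithelial splicing factors ESRP1 and ESRP2 lay near the threshold at 1.28, 1.42 and 0.943 TPM and 1.39, 1.86 and 1.38 TPM.

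Claudins, the strand proteins of tight junctions, ranged from high to near 0. CLDN1 was at 663, 637 and 650.0 TPM and CLDN12 at 84.3, 79.5 and 83.2 TPM. CLDN4 was at 5.25, 1.29 and 6.45 TPM and CLDN7 at 2.66, 2.50 and 2.17 TPM, and CLDN3 had 5, 1 and 2 counts. CLDN11, best known from myelin and testis, was at 663, 679 and 186 TPM, with library 3 far below the others. CLDN11 and CLDN12 were named after their values were seen. In all, 7 of 24 claudin genes were expressed (29.2%, against 59.8% of all protein-coding genes).

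**Figure D2:**
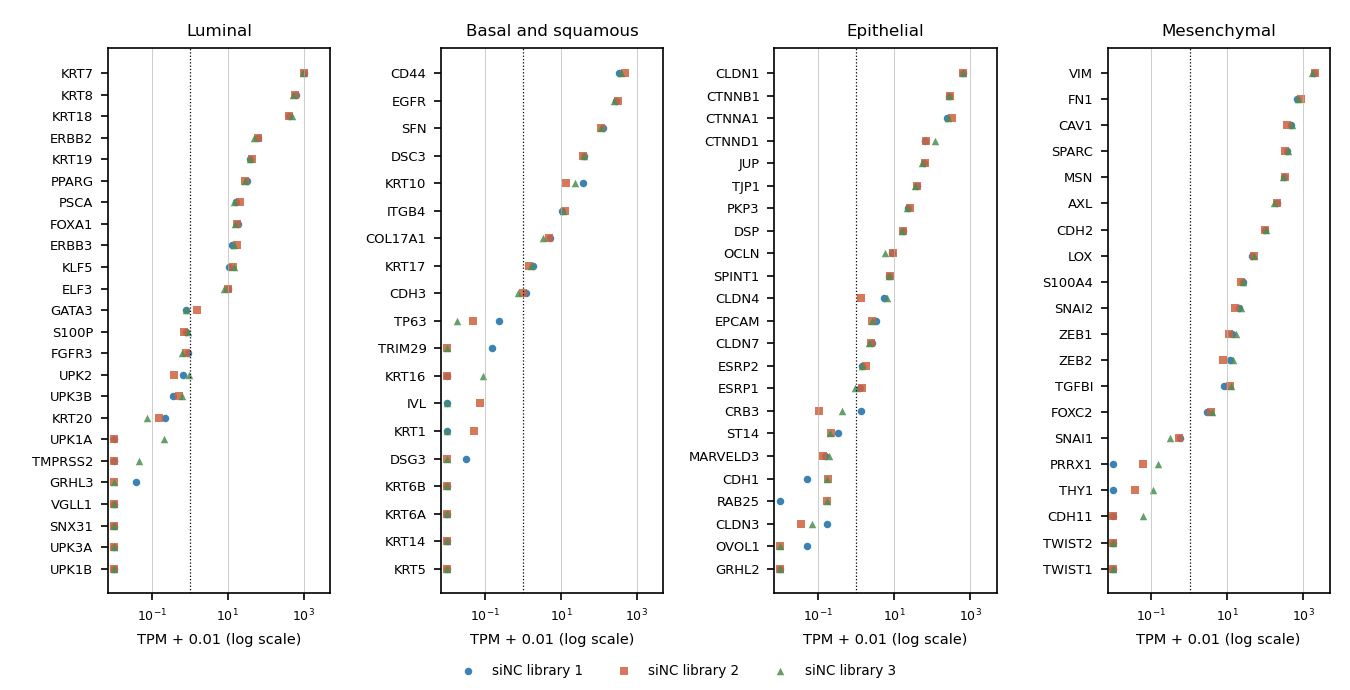
TPM + 0.01 (horizontal axis, log scale) of the genes of 4 marker lists, except 1 of the basal list that is not reported here, with 1 point for each siNC library and genes ordered by mean; the dotted line marks a TPM of 1. KRT7, CD44, CLDN1 and VIM lead their panels, and UPK1B, UPK3A, KRT5, KRT14, GRHL2 and TWIST1 sit at the left edge, where TPM is 0.

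Reference sequence just before the annotated start of 6 of these genes is given to show the regions that precede genes at the top and at the bottom of the order. The sequences are from RefSeq (GRCh38.p14), 250 bases on the strand of the gene, 5′ to 3′, ending at the base before the start. Capitals mark matches, on either strand, to 8 motifs, which are the TATA box (TATAAA), the CCAAT box (CCAAT), the GC box (GGGCGG), an ETS core (CCGGAAG), a cAMP response element (TGACGTCA), an AP-1 site (TGACTCA), an NRF1 core (GCATGCGC) and a YY1 core (AAGATGGCG). The genes are EEF1A1 (chr6:73521033-73521282, minus strand), VIM (chr10:17227991-17228240, plus), CLDN1 (chr3:190322447-190322696, minus), CLDN3 (chr7:73770271-73770520, minus), KRT5 (chr12:52520395-52520644, minus) and UPK1B (chr3:119173348-119173597, plus). The first 3 genes were expressed and the last 3 were not.
EEF1A1: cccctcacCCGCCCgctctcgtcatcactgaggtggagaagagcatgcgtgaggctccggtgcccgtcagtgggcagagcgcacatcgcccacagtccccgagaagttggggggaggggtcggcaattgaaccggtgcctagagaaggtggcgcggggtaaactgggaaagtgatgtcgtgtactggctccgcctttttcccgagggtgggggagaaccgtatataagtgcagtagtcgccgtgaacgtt
VIM: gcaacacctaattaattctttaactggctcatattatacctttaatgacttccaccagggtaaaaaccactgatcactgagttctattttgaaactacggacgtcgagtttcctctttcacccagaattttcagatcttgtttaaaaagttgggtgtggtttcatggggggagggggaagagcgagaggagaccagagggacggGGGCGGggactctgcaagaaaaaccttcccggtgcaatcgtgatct
CLDN1: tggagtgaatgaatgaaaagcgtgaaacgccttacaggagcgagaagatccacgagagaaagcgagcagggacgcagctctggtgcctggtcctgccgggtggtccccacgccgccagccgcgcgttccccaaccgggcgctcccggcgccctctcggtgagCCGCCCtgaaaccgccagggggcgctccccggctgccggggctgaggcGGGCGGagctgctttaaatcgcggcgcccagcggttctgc
CLDN3: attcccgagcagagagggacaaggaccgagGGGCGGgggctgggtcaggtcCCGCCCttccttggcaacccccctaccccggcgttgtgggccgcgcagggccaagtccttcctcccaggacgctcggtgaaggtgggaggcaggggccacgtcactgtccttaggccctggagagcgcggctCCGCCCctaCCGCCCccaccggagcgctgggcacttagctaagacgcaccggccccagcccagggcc
KRT5: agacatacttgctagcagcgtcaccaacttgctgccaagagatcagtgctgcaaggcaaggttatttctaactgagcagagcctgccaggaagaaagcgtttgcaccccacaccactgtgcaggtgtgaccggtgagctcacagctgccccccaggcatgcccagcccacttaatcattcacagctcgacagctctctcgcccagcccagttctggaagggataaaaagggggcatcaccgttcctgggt
UPK1B: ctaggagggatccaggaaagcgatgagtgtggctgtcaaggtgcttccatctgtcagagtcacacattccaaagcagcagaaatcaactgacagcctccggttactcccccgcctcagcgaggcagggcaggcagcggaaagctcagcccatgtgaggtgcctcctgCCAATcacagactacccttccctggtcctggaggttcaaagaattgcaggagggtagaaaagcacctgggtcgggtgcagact
The letters GGGCGG, the GC box, occurred before EEF1A1, VIM, CLDN1 and CLDN3 and were not found in the KRT5 and UPK1B windows. They are in 42.7% of 34961 promoters of the same length. CCAAT was found before UPK1B alone of the 6 and is in 31.97% of all promoters. The other motifs were found in none of the 6 windows. They are in 10.7% (TATAAA), 8.52% (CCGGAAG), 1.65% (TGACGTCA), 4.17% (TGACTCA), 2.64% (GCATGCGC) and 0.655% (AAGATGGCG) of all promoters. The CLDN3 window, of a gene with 5, 1 and 2 counts, held 19 CpG dinucleotides at a GC content of 71.6%, and the highly expressed VIM window held 8 at 46.0%. Such matches describe letters and say nothing about binding. A comparison of base content by level over all genes is void, because only 70.8% of the genes with at most 3 counts in each library had a promoter in the table used here.

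Most markers of other cell types were under the threshold, with exceptions among smooth muscle, myeloid, fibroblast and neuronal markers. The libraries are of 1 cell line. In bulk RNA, fewer cells that express a gene and less RNA per cell cannot be told apart. None of 6 T cell markers, 5 B cell markers, 7 endothelial markers and 7 erythroid and liver markers were expressed, and CD3D, CD3E, CD2, HBB, TTR and FGB had no count. The summed levels ranged from 1.24 to 1.30 TPM for T cell markers, from 0.887 to 0.963 TPM for B cell markers and from 0.566 to 1.50 TPM for endothelial markers. Of 8 fibroblast markers COL1A1 and PDGFRB were expressed, at 3.45, 3.56 and 2.83 TPM and 3.20, 3.37 and 2.57 TPM, while LUM and FAP had no count and DCN 0, 6 and 0 counts. Of 7 myeloid markers CD68, a lysosomal protein, was at 4.997, 8.15 and 7.92 TPM and CD14 at 3.64, 3.02 and 2.72 TPM, and the defining CD163 and AIF1 had 0, 3 and 3 counts and 0, 2 and 0 counts. Of 6 smooth muscle markers 3 were expressed (50%, against 59.8% of all protein-coding genes). SMTN, a smoothelin, was the highest gene of these lists at 34.4, 34.01 and 26.2 TPM, TAGLN, transgelin, was at 8.06, 8.59 and 9.52 TPM and the actin ACTA2 at 5.80, 5.47 and 4.85 TPM. MYH11 and DES, which define smooth muscle, were at 0.550 and 0.116 TPM on average. SNAP25, a synaptic fusion protein, was at 5.004, 3.76 and 4.42 TPM and was the 1 neuronal marker of 7 that was expressed. The summed levels ranged from 41.2 to 49.3 TPM for smooth muscle, from 9.01 to 11.8 TPM for myeloid, from 6.12 to 7.25 TPM for fibroblast and from 5.62 to 7.47 TPM for neuronal markers.

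The mevalonate pathway, which makes cholesterol and the isoprenoids that anchor small GTPases in membranes, was expressed from end to end. Of 14 enzymes 13 were expressed (92.9%, against 59.8% of all protein-coding genes), each above 10 TPM in every library. The median was 54.9 TPM. FDPS, the farnesyl diphosphate synthase that the study targeted, was the highest at 159, 168 and 161 TPM (ENSG00000160752, chr1:155308748-155320666, GRCh38). FDFT1, squalene synthase, followed at 114, 114 and 112 TPM and SQLE, squalene epoxidase and the study's other enzyme target, at 91.6, 76.1 and 85.001 TPM (ENSG00000104549, chr8:124998497-125022283). The 3 ranges did not overlap.

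Upstream of these, HMGCS1, the cytosolic HMG-CoA synthase, was at 82.6, 78.00 and 87.5 TPM. The kinases and the decarboxylase were lower, with MVK at 17.8, 14.7 and 14.6 TPM, PMVK at 18.4, 18.6 and 16.5 TPM and MVD at 28.8, 30.6 and 24.8 TPM. GGPS1, which makes the geranylgeranyl group, was at 18.5, 25.3 and 32.7 TPM and its count is uncertain, because TBCE is annotated over the same bases. IDI1, an isopentenyl diphosphate isomerase, was at 60.96, 54.8 and 58.6 TPM while its muscle paralog IDI2 had 0, 4 and 0 counts. YY1, the transcription factor and the study's remaining target, was at 46.4, 45.7 and 43.8 TPM (ENSG00000100811, chr14:100238298-100282792).

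All 10 prenylation enzymes were expressed, against 59.8% of all protein-coding genes. RABGGTB, a subunit of the transferase that prenylates Rab proteins, was the highest at 124, 102 and 138 TPM, and ZMPSTE24, a protease that trims prenylated proteins, followed at 87.04, 71.2 and 89.9 TPM. FNTA, the subunit shared by the farnesyl and the geranylgeranyl transferase, was at 42.2, 32.9 and 54.7 TPM, FNTB at 22.04, 32.3 and 30.5 TPM and PGGT1B, the lowest of the list, at 10.8, 10.2 and 11.9 TPM. The last lay below every other member in each library.

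Several small GTPases that receive these groups were highly expressed. RHOA, the main driver of stress fibres, was at 760.0, 691 and 754 TPM, and CDC42 at 240.0, 257 and 247 TPM, RHOC at 174, 212 and 160.0 TPM and RAC1 at 167, 160.3 and 176 TPM were lower. RAC2, known mainly from blood cells, was at 149, 142 and 136 TPM, below the range of RAC1. RHOF, which forms filopodia, was at 102, 95.9 and 81.5 TPM. RHOB, an endosomal GTPase named in the study's title, was at 90.6, 80.1 and 81.3 TPM.

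In 2 of these GTPases library 2 stood apart: RND3, an atypical GTPase, was at 41.03, 124 and 49.6 TPM and RHOQ at 18.7, 60.4 and 16.9 TPM. RHOH, a blood cell form, had 0, 3 and 0 counts. Of the Ras proteins RRAS2 was at 202, 199 and 236 TPM, NRAS at 85.1, 74.8 and 83.9 TPM and HRAS, whose mutated form was first cloned from this line, at 83.4, 79.5 and 79.4 TPM.

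**Figure D3:**
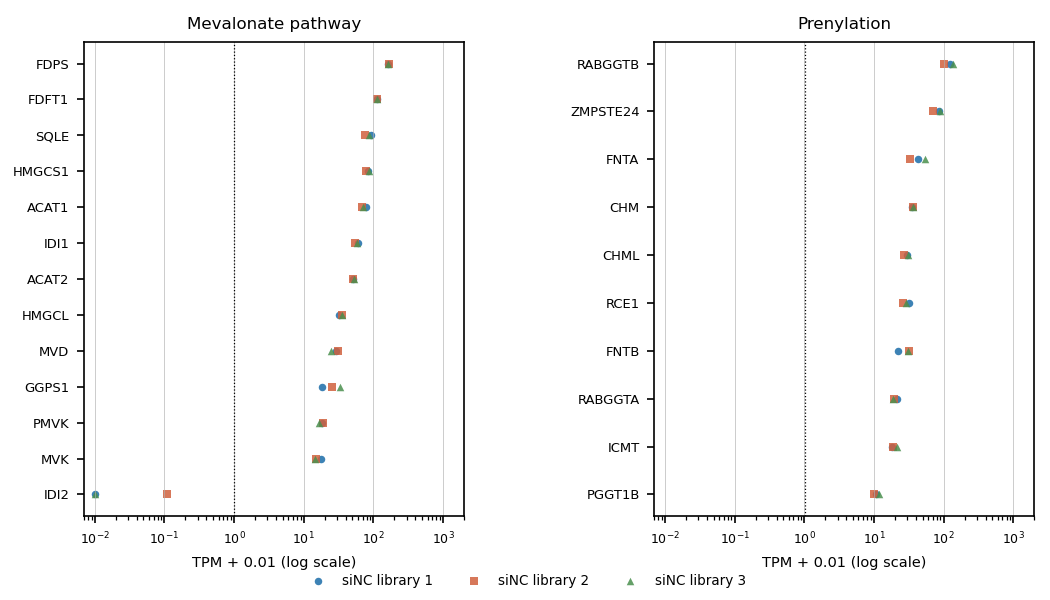
TPM + 0.01 (horizontal axis, log scale) of mevalonate pathway enzymes (13 of the 14) and prenylation enzymes, with 1 point for each siNC library and genes ordered by mean; the dotted line marks a TPM of 1. FDPS leads the mevalonate panel and RABGGTB the prenylation panel, PGGT1B is lowest of its panel, and IDI2 is near 0.

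All 24 listed genes of the RAS and MAPK cascade were expressed, against 59.8% of all protein-coding genes, with a median of 41.6 TPM. FOSL1, an AP-1 factor and a target of the cascade, was the highest at 342, 276 and 312 TPM. Other targets were PHLDA1 at 111, 81.9 and 112 TPM and ETV5, an ETS factor, at 68.98, 68.9 and 67.2 TPM. The feedback phosphatase DUSP6 was at 23.7, 22.1 and 22.5 TPM. The RAF kinase ARAF, at 92.4, 99.02 and 89.4 TPM, lay above BRAF at 12.1, 13.9 and 16.9 TPM. A kinase they activate, MAP2K2, was at 99.7, 82.7 and 74.1 TPM.

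Of 58 receptor tyrosine kinases 25 were expressed (43.1%, against 59.8% of all protein-coding genes), and 4 of them reached 100 TPM in each library: EGFR (above), AXL at 199, 201 and 175 TPM, RYK at 134, 134 and 138 TPM and MET, the receptor for HGF, at 126, 129 and 124 TPM. EPHA2 was at 77.1, 75.03 and 64.8 TPM. FGFR1 was at 18.5, 19.9 and 14.3 TPM, FGFR4 at 4.86, 3.74 and 3.68 TPM and FGFR2 had 2, 0 and 3 counts. KIT had 0, 2 and 0 counts, and EPHA5, EPHA7, EPHA8 and FLT4 had none.

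Ligands of the expressed receptors were present for EGFR and not for MET. HGF, the ligand of MET, had no count. The EGFR ligands EREG, TGFA and HBEGF were at 12.5, 10.4 and 10.2 TPM, 9.90, 9.82 and 11.1 TPM and 7.20, 7.64 and 8.62 TPM, and EGF itself was at 1.75, 1.68 and 1.48 TPM. VEGFA was at 151, 189 and 182 TPM, though its main receptor KDR had 9, 9 and 4 counts.

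Inflammatory cytokines were among the higher secreted genes. In all, 37 of 45 growth factors and cytokines were expressed (82.2%, against 59.8% of all protein-coding genes), with a median of 19.3 TPM. IL1B was at 179.7, 208 and 203 TPM and IL18 at 204, 196 and 245 TPM. The highest gene of the list on average was HDGF, a nuclear growth factor, at 285, 264 and 295 TPM. CXCL8, which attracts neutrophils, was at 186, 160.3 and 226 TPM, CXCL1 at 117, 105 and 113 TPM and IL6 at 112, 92.4 and 121 TPM. CSF3, the granulocyte colony-stimulating factor, was at 121, 133 and 135 TPM and LIF at 138, 157 and 132 TPM.

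Other members of that list varied or were absent. MIF was at 290.2, 208 and 131 TPM and FGF2 at 12.1, 36.4 and 9.43 TPM, with library 2 apart for FGF2. CCL2, a monocyte attractant, had 0, 0 and 1 counts and CXCL10 14, 10 and 7, and IGF1 had none.

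Of 26 integrin subunits 14 were expressed (53.8%, against 59.8% of all protein-coding genes). ITGB1, the beta subunit shared by most matrix receptors and the integrin named in the study's title, was at 619, 624 and 599 TPM, above every alpha subunit. ITGA3, a laminin receptor, was at 379.6, 434 and 334 TPM, ITGA5, a fibronectin receptor, at 99.03, 112 and 85.96 TPM, ITGAV at 98.3, 92.7 and 104 TPM and ITGA6 at 72.9, 68.2 and 70.9 TPM. ITGB5, a partner of ITGAV, was at 73.1, 73.3 and 73.3 TPM. Subunits known from white blood cells ranged widely. ITGAE, which pairs with a beta subunit of lymphocytes, was at 43.5, 37.7 and 47.8 TPM, while ITGB2 was at 4.58, 4.06 and 3.17 TPM, ITGAL at 0.490 TPM on average and ITGAD without a count.

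All 31 listed bladder cancer driver genes were expressed, against 59.8% of all protein-coding genes, with a median of 43.5 TPM. FGFR3, under the threshold at 0.883, 0.803 and 0.599 TPM, is not in this list. The list was chosen with earlier results of these data known, so its share is a description and not a test. CCND1, cyclin D1, was the highest at 723, 796 and 717 TPM. TXNIP, which binds thioredoxin, was at 186, 225 and 247 TPM and FAT1, a large cadherin, at 84.6 ± 14.8 TPM. STAG2, a cohesin subunit, was at 113, 128 and 135 TPM and the cell-cycle brake CDKN1A at 91.1, 77.1 and 66.5 TPM. RB1, which holds back entry into the cell cycle, was at 42.01, 37.1 and 51.4 TPM. CDKN2A was at 32.6, 43.5 and 20.02 TPM and its neighbour MTAP, often deleted with it, at 13.2, 15.4 and 13.8 TPM. TERT, the catalytic subunit of telomerase, was the lowest of the list at 1.22, 1.66 and 1.24 TPM. MYC differed most between libraries, at 51.6, 5.02 and 34.2 TPM from 2623, 184 and 1789 counts.

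The 24 proliferation genes were all expressed, against 59.8% of all protein-coding genes. Each was above 10 TPM in every library, and their median was 54.4 TPM. The mitotic cyclin CCNB1 was at 154, 127 and 127 TPM, PCNA, the sliding clamp of DNA replication, at 151, 119 and 126 TPM and the proliferation marker MKI67 at 37.3, 41.97 and 29.7 TPM. CDC20, an activator of the anaphase-promoting complex, was at 147, 128 and 115 TPM and UBE2C, its ubiquitin-conjugating enzyme, at 126, 105 and 98.3 TPM. TK1, thymidine kinase, was at 129, 129 and 111 TPM and MCM7, part of the replicative helicase, at 115, 120.5 and 116 TPM. RRM2, a ribonucleotide reductase subunit, was at 43.8, 20.04 and 24.9 TPM, with library 1 above the others.

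Genes of the interferon response were expressed, and no count of interferon beta was found at this depth. Of 32 nucleic acid sensors and interferon genes 26 were expressed (81.25%, against 59.8% of all protein-coding genes), with a median of 27.2 TPM. IFNB1 and IFNL1 had no count in any library. The interferon-stimulated genes IFI27, at 414, 237 and 438 TPM, ISG15, at 195, 189 and 145 TPM, and IFIT3, at 153, 153 and 149.7 TPM, led the list. IFIT2, of the same family as IFIT3, was at 106, 102 and 136 TPM.

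STAT2, which carries the interferon signal to the nucleus, was at 107, 111 and 112 TPM. Of the sensors, DDX58 (RIG-I) was at 54.7, 52.1 and 59.4 TPM, IFIH1 at 16.9, 17.97 and 17.1 TPM, CGAS at 9.04, 6.10 and 9.56 TPM and TLR3 at 5.97, 6.34 and 7.25 TPM, while TLR7 and TLR9 had 0, 6 and 0 and 12, 16 and 5 counts and TLR8 none. These libraries carry a transfected siRNA, and without an untransfected library its part in these levels was not tested. All 13 listed genes of the small RNA machinery were expressed, against 59.8% of all protein-coding genes. AGO2, the slicing Argonaute, was at 40.3, 41.04 and 32.6 TPM, DICER1 at 36.6, 45.6 and 50.1 TPM and TARBP2 at 35.9, 35.4 and 30.8 TPM.

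The class I antigen presentation pathway was expressed, and class II genes were mixed. B2M, the invariant chain of class I, was at 2336, 2311 and 2619.8 TPM, HLA-B at 114, 97.5 and 101 TPM and TAP1, the peptide transporter, at 44.8, 43.7 and 39.4 TPM. HLA-E was at 284, 282 and 261 TPM, TAPBP, the peptide-loading chaperone tapasin, at 115, 119.7 and 109 TPM and NT5E, the ectonucleotidase CD73, at 114, 110.3 and 109 TPM. Of 26 listed genes 23 were expressed (88.5%, against 59.8% of all protein-coding genes). Of class II, CD74, the invariant chain, was at 54.1, 52.2 and 57.5 TPM, HLA-DPA1 at 9.11, 10.05 and 8.17 TPM and HLA-DPB1 and HLA-DMA, named after their values were seen, at 15.1, 13.1 and 15.4 TPM and 1.49, 1.81 and 1.63 TPM. HLA-DRA had 7, 4 and 4 counts and its regulator CIITA was at 0.752, 0.831 and 1.14 TPM. The checkpoint ligand CD274 was at 6.16, 6.07 and 5.40 TPM and CD276 at 42.9, 67.9 and 37.6 TPM. HLA genes are polymorphic and similar to each other, so their levels against a single reference are uncertain.

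Of 15 surface proteins used as drug targets 10 were expressed (66.7%, against 59.8% of all protein-coding genes). NECTIN4, the target of a conjugate used in urothelial cancer, had 13, 32 and 8 counts or 0.331, 0.505 and 0.0882 TPM, and SLITRK6 had 16, 19 and 3 counts. MSLN, mesothelin, was at 58.8, 61.5 and 48.1 TPM and F3, tissue factor, at 73.3, 75.98 and 77.03 TPM.

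Cancer-testis antigens, genes of the germ line that tumours can switch on, ranged from well expressed to no count. Of 25 genes found 8 were expressed (32%, against 59.8% of all protein-coding genes), each above 10 TPM in every library. Of the 25, 13 had at most 3 counts in each library, against 21.2% of all protein-coding genes. The remaining 4 lay between. MAGEA3 was at 87.3, 112 and 81.8 TPM, MAGEB2 at 73.1, 70.6 and 81.6 TPM, XAGE1B at 67.05, 62.8 and 71.3 TPM, MAGEA6 at 60.7, 59.7 and 62.2 TPM, MAGEA12 at 53.9, 48.9 and 48.3 TPM and MAGEA1 at 44.2, 43.02 and 49.2 TPM. MAGEA4, MAGEC2, PRAME, CTAG1B, CTAG2, GAGE1 and SSX2 had no count. MAGEA3, MAGEA6 and MAGEA12 are close copies on chromosome X, as are the copies of XAGE1, so reads may be split among them.

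HOX genes, which record position along the body axis, were expressed in all 4 clusters. Of 39 genes 30 were expressed (76.9%, against 59.8% of all protein-coding genes). The HOXB cluster on chromosome 17 was the highest, with 9 of 10 genes expressed and a mean summed level of 194 TPM. The summed levels of the other clusters were 67.6 TPM for HOXD, 54.1 TPM for HOXC and 46.5 TPM for HOXA.

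HOXB3 led at 48.9, 45.04 and 39.1 TPM, HOXB7 was at 35.6, 28.7 and 34.8 TPM and HOXB6 at 33.3, 34.1 and 28.8 TPM, and the last 2 overlapped. HOXB4 was at 18.9, 18.96 and 17.9 TPM, HOXB2 at 24.05, 20.05 and 21.3 TPM and HOXB8 at 17.02, 17.4 and 14.6 TPM. Some genes were silent or low inside expressed clusters. HOXA11 and HOXC11 had no count, while HOXA10 was at 12.96, 6.38 and 12.4 TPM and HOXC13 at 13.1, 11.5 and 11.5 TPM. HOXC10 and HOXC12, on either side of HOXC11, were not expressed either, with 16, 33 and 27 and 0, 3 and 0 counts. HOXA13 was also under the threshold, at 0.261, 0.376 and 0.292 TPM. HOXD11 was at 10.6, 10.9 and 7.12 TPM, but its neighbours HOXD12 and HOXD13 had 0, 4 and 3 and 0, 5 and 3 counts. HOXB1, the most anterior gene of its cluster, had no count.

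**Figure D4:**
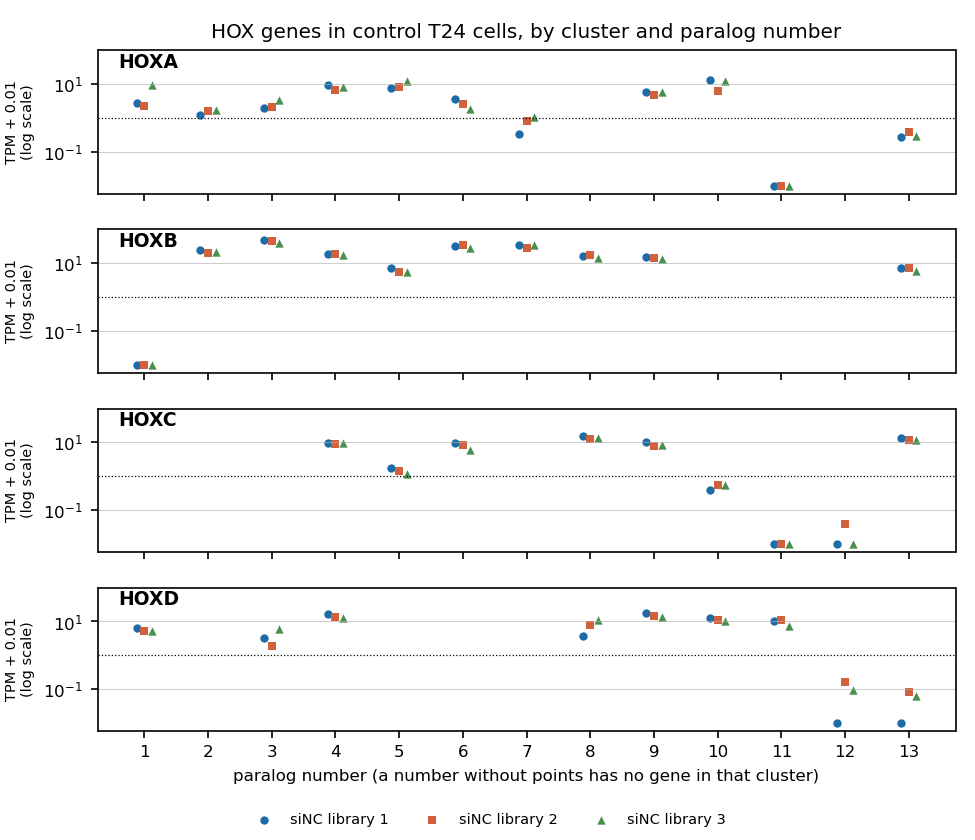
TPM + 0.01 (vertical axis, log scale) of the HOX genes in 4 panels, 1 for each cluster, by paralog number (horizontal axis), with 1 point for each siNC library; the dotted line marks a TPM of 1. HOXB2 to HOXB9 sit above the line, HOXB1, HOXA11 and HOXC11 at the bottom, and the HOXD panel drops after HOXD11.

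Of 48 nuclear receptors 32 were expressed (66.7%, against 59.8% of all protein-coding genes). Their median was 3.40 TPM (all protein-coding genes 6.13 TPM). NR2F2, an orphan receptor of mesenchyme, was the highest on average at 65.3, 96.3 and 86.1 TPM. RXRA, the common partner of many receptors, was at 59.9, 67.3 and 56.6 TPM and the glucocorticoid receptor NR3C1 at 42.9, 45.1 and 37.9 TPM. NR2C2 was at 50.7, 50.5 and 39.9 TPM, NR1H2, an oxysterol receptor, at 43.1, 26.97 and 30.4 TPM and ESRRA, an orphan receptor of energy metabolism, at 32.7, 33.5 and 25.3 TPM. The estrogen receptors ESR1 and ESR2 had 15, 24 and 20 and 15, 26 and 20 counts and the progesterone receptor PGR 0, 0 and 3. NR0B1, NR5A1 and NR2E1 had no count.

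Glycolytic genes were among the highest in the cells, and tissue-restricted isozymes were absent. Of 32 glycolytic enzymes and transporters 22 were expressed (68.75%, against 59.8% of all protein-coding genes). The 32 together held 29389.6, 32763 and 28406 TPM. ENO1 was at 4894, 5166 and 4906 TPM and LDHA, the lactate dehydrogenase of glycolytic tissue, at 3383, 3633 and 2931 TPM, above LDHB at 2041, 1941 and 2205 TPM. PGAM1, phosphoglycerate mutase, was at 1884, 1845 and 1813 TPM. PKM was at 2357, 4288 and 2444 TPM, with library 2 apart. HK1 lay above HK2, at 225, 206 and 172 TPM and 18.9, 20.6 and 19.1 TPM. The forms of liver, testis or white blood cells were silent: PKLR had 0, 0 and 3 counts, and HK3, SLC2A2, GAPDHS and PGK2 had none.

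Antioxidant genes and targets of the factor NRF2 were high, with a median of 125 TPM. Of 26 genes 22 were expressed (84.6%, against 59.8% of all protein-coding genes). PRDX1, a peroxiredoxin, was at 1582, 1456 and 1601 TPM, AKR1B1 at 1185, 1096 and 1023 TPM and NQO1 at 573, 604 and 557 TPM. TXNRD1, thioredoxin reductase, was at 1100.1, 2217 and 1062 TPM, again with library 2 apart. ALDH1A3, a retinaldehyde dehydrogenase, was at 382, 454 and 408 TPM against 3.15, 2.16 and 3.27 TPM for ALDH1A1 and 0, 0 and 5 counts for ALDH3A1. NFE2L2, the gene of NRF2, was at 119.9, 123 and 133 TPM.

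Of 40 cytoskeletal genes 35 were expressed (87.5%, against 59.8% of all protein-coding genes), with a median of 157 TPM. The cytoplasmic actins ACTG1 and ACTB were at 1727, 1745 and 1832 TPM and 1774, 1479.9 and 1585 TPM with overlapping ranges, and the cross-linker FLNA was at 841, 1011 and 729 TPM. The actin-binding proteins PFN1 and CFL1, profilin and cofilin, were at 1520.4, 1445 and 1402 TPM and 1209, 1182 and 1111 TPM, and the tubulin TUBA1B was at 873, 855 and 748 TPM. The muscle actins were low: ACTA2 was at 5.80, 5.47 and 4.85 TPM, ACTA1 at 0.221 TPM on average, and ACTC1 and ACTG2 had 0, 0 and 4 and 3, 0 and 0 counts.

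Long noncoding RNAs held 1.43 ± 0.0147% of the TPM. The highest was LRRC75A-AS1, a host of small nucleolar RNAs, at 821, 776 and 897 TPM. GAS5 was at 439.6, 429 and 467 TPM and SNHG6 at 439, 418 and 434 TPM, and both are also snoRNA hosts. NORAD, a cytoplasmic RNA that binds Pumilio proteins, was at 294, 295 and 295 TPM, and its CV was smaller than that of any other gene of the top 15. CASC19, near MYC, was at 158, 139 and 140.2 TPM. ZFAS1 was at 209, 209 and 234 TPM, SNHG1 at 109.6, 111 and 114 TPM and MIR4435-2HG at 99.7, 111 and 125 TPM.

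The nuclear RNA MALAT1 was at 77.5, 75.1 and 81.97 TPM and NEAT1 at 18.02, 95.5 and 26.8 TPM, with library 2 apart. Of the NEAT1 level in library 2, 56.9 TPM came from ENST00000616315, a transcript of 512 bases with 0, 880 and 0 counts. The NEAT1 transcript of 22743 bases was at 10.5, 28.2 and 18.95 TPM. UCA1, first described in bladder cancer, was at 5.35, 3.64 and 3.03 TPM, and LINC00958 was at 82.6, 98.6 and 86.1 TPM. H19 had 29, 29 and 11 counts, HOTAIR 0, 0 and 7 and MEG3 0, 4 and 2. The 2 transcripts FP236383.3 and FP236383.2, at 426, 454 and 506 TPM and 137, 146 and 151 TPM, lie in repeated parts of chromosome 21, and their levels are uncertain.

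By pathway, 307 KEGG pathways named in the deposited annotation held at least 20 protein-coding genes, and a median of 69.3% of the genes of a pathway were expressed. The largest shares were in apoptosis as defined for the fly (51 of 53), protein export (23 of 24) and aminoacyl-tRNA biosynthesis (44 of 46.0). The highest members listed for the fly pathway were BTF3 and EIF5A, named after their values were seen. The assignment of genes to pathways was taken from the annotation and not checked. The smallest were in olfactory transduction (21 of 432), nicotine addiction (3 of 41) and asthma (5 of 37). The expressed members of olfactory transduction were led by CALM2, a calmodulin gene, and GNB1, a G protein subunit, and not by receptors. These 2 genes, the flanking genes of silent runs and the pseudogenes above were named after their values were seen.

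Some of the genes with at most 3 counts lay side by side in families, and the longest runs of such neighbours are given here. The longest run of neighbouring protein-coding genes with at most 3 counts in each library was on chromosome 11 (chr11:48216810-57191717, GRCh38): 65 genes, 57 of them olfactory receptors, between PTPRJ at 54.6, 66.00 and 57.6 TPM and APLNR. The next was on chromosome 21 (chr21:30165564-31038476), with 35 genes of which 33 encode keratin-associated proteins of hair, between GRIK1 and TIAM1. Chromosome 8 followed (chr8:7414860-7977985), with 30 genes led by 12 beta-defensins.

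On chromosome 1 a run of 23 genes (chr1:152510844-152885047), 18 of them late cornified envelope genes of skin, ended next to IVL, involucrin, which had 0, 4 and 0 counts. Tied for the fifth place was a run on chromosome 11 (chr11:59852800-60801305) of 22 genes, 16 of them of the MS4A family of immune cells. The other run of 22 genes was on chromosome 1 (chr1:152947154-153460701), with 11 SPRR genes of the cornified envelope. Of 386 olfactory receptor genes found by symbol 1 was expressed (0.259%, against 59.8% of all protein-coding genes). This was OR51B5 at 3.95, 3.07 and 4.05 TPM, in the beta-globin locus and named after its values were seen. Of 94 keratin-associated protein genes none was expressed and 83 had at most 3 counts in each library. Of all protein-coding genes 59.8% were expressed and 21.2% had at most 3 counts in each library.

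By chromosome, the share of protein-coding genes expressed ran from 49.1% on chromosome X to 65.3% on chromosome 14. Chromosomes 21 and 11, which hold the longest silent runs, were at 50.2% and 51.6%. Chromosome Y was left out.

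Most expressed genes were steady between the 3 libraries. The median coefficient of variation (CV, the SD over the mean) of TPM was 9.45% over 11934 expressed protein-coding genes, and it fell with level, from 13.2% at a mean of 1 to 10 TPM to 5.32% at 1000 TPM or more. The biological coefficient of variation, which edgeR estimates after removing counting noise and in which the most variable genes weigh more, was 18.3%. HSP90AB1, a chaperone named after its values were seen, had a CV below the median for its level, at 1426, 1404 and 1409 TPM.

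A few genes jumped in a single library. Of 8904 protein-coding genes with a mean of at least 10 TPM, 104 had a CV over 50%. In 59 of these, 2 libraries lay within 1.2-fold of each other and the remaining library stood apart, which was library 1 in 25, library 2 in 12 and library 3 in 22 genes, so no library stood apart throughout. YTHDF3, a reader of methylated adenosine in mRNA, was at 23.5, 22.5 and 149.7 TPM and MEX3C, a ubiquitin ligase that binds RNA, at 5.93, 5.76 and 38.6 TPM, both high in library 3 alone. Of the 2178, 2626 and 12426 counts of YTHDF3, transcript ENST00000517371 held 0, 0 and 6065 and ENST00000539294 held 1666, 2077 and 3360. DAG1, dystroglycan, was at 21.3, 73.1 and 13.99 TPM and the phosphatase DUSP3 at 43.7, 12.4 and 8.86 TPM.

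Others of the 12 most variable genes share exons with a neighbour. OVCA2, at 4.42, 3.36 and 26.6 TPM, SYS1-DBNDD2, at 27.7, 3.16 and 5.014 TPM, and NME1-NME2, at 124, 0 and 158 TPM, are annotated over other genes, and AP002990.1, at 694, 376 and 12.1 TPM, spans EEF1G on the same strand, so their counts are uncertain. STX6 was at 9.54, 11.02 and 40.3 TPM, CHAMP1 at 26.5, 6.87 and 7.03 TPM, AC004922.1 at 3.29, 9.54 and 36.9 TPM and AL358113.1 at 60.5, 56.7 and 1.69 TPM. AHNAK, a giant scaffold protein named after its values were seen, had 7716, 344381 and 200616 counts but 250.2, 620.2 and 422 TPM.

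**Figure D5:**
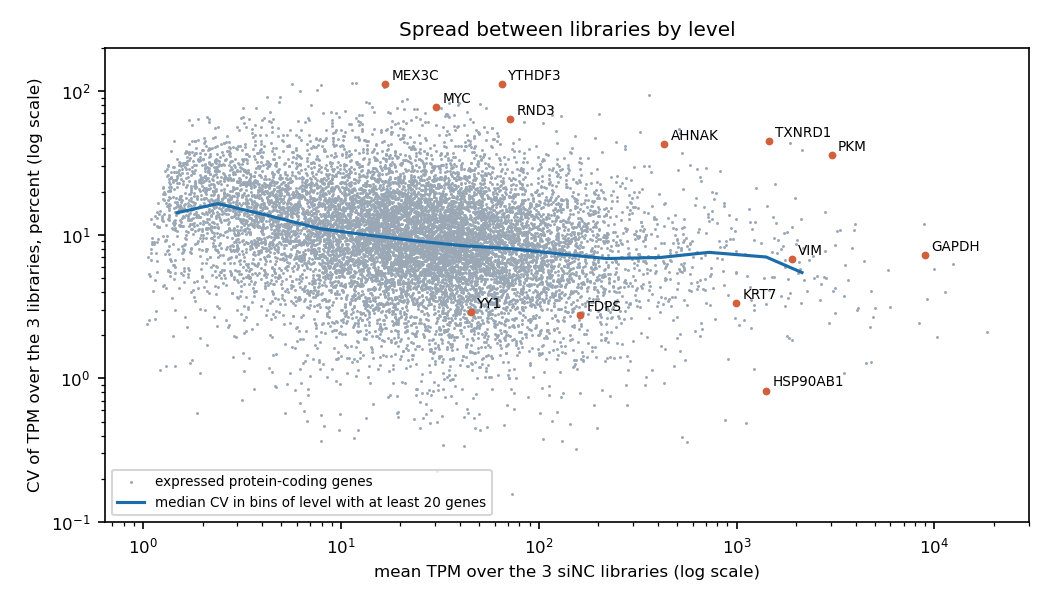
CV of TPM over the 3 siNC libraries in percent (vertical axis, log scale) against mean TPM (horizontal axis, log scale) for the expressed protein-coding genes outside chromosome Y, with 13 named genes in orange and the median of bins with at least 20 genes as a blue line. The line falls with level, HSP90AB1 and KRT7 lie below it, and YTHDF3, MEX3C, MYC, TXNRD1 and PKM lie far above it.

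The counts were less steady by transcript than by gene. Of 11317 expressed protein-coding genes with more than 1 annotated transcript, the same transcript had the highest TPM in all 3 libraries in 7786 (68.8%). Among the genes with a mean of at least 10 TPM this share was 71.4%, and among those of them with a CV over 50% it was 47.5%. VIM shows the pattern: transcript ENST00000224237 had 61382, 78249 and 1796 counts and ENST00000544301 had 0, 4281 and 71520, while the gene as a whole was at 1872, 1890.4 and 1892 CPM.

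In PKM the gene total moved as well. Transcript ENST00000335181 had 83124, 1111 and 80621 counts and ENST00000567118 had 0, 114872 and 0, and the gene was at 2557, 3777 and 2751 CPM. TXNRD1 changed in the same library, with 53712, 15408 and 53102 counts for ENST00000526691 and 2298, 105423 and 2889 for ENST00000526390. MYC had 2623, 184 and 1789 counts in all, and its leading transcript in library 1, ENST00000621592 with 1430 counts, had 25 and 18 in the others. The TPM of these genes depends in part on how reads were divided among overlapping transcripts, which the sources used here do not state. The gene totals of PKM, TXNRD1 and MYC moved between libraries too, and the reason was not tested.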

How the data were processed

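Polyadenylated RNA of T24 cells was sequenced with a stranded kit that tags molecules with unique identifiers. The authors deposited counts per transcript, with annotation and the length of each transcript. The submitters' processing notes name Trimmomatic 0.36, STAR 2.5.3, featureCounts, Subread 1.5.1 and the build GRCh38, with no role or order, and the division of reads among transcripts is not given in the sources used here. The lengths equalled those of GENCODE 29 for all 206534 transcripts found there.

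From the deposited counts, TPM was computed for the 3 siNC libraries as described in the report, with no filter. Each count was divided by its own transcript's length, so a read moved between transcripts of different length moves the TPM of the gene. Where a symbol had several gene IDs, the highest was used. The 9 columns of the knockdown libraries were not used. Dispersion was estimated with edgeR 4.0.16 (TMM factors, intercept only, genes kept by filterByExpr); DESeq2 1.42.0 gave size factors for an alternative, and Python 3.11.15 and R 4.3.3 ran the rest. Scripts were tested on simulated data with known levels, dispersion and a seeded set of changed genes. No groups were compared, so there is no test and no p-value. Promoter sequence came from RefSeq.

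The samples, 32 gene lists and thresholds were chosen with earlier results of these data known. Named genes were the 30 highest nuclear and 13 mitochondrial protein-coding genes, the 15 highest long noncoding RNAs, members of the lists (in lists over 15 genes the 6 highest and those of a role described), the 12 most variable genes at a mean of at least 10 TPM, the 3 KEGG pathways at each end and the 5 longest silent runs. Exceptions are marked in the text. Alternatives were other gene lengths, thresholds, scalings, thinning to the smallest total (seed 7) and leaving out each library. Some list members are not reported here, though they count in the list totals.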

Additional observations from a re-analysis of the deposited data

How the results depend on the processing

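The number of protein-coding genes expressed stayed between 10019 (TPM at least 5) and 12507 (TPM at least 0.5) under every alternative tried, and that of all biotypes between 11022 and 16975 under the same 2 settings. The number of protein-coding genes with no count was 2718, and 4237 when at most 3 counts in each library were allowed, which admits more genes by construction. The share of TPM in the 100 highest genes, 33.7%, was 34.6% with the longest transcript as the length, 22.5% with the median transcript length and 20.2% with no length. The median CV of expressed protein-coding genes lay between 6.87% and 8.98% and the biological coefficient of variation between 17.1% and 19.5% when 1 library was left out, and between 11999 and 12062 protein-coding genes and 15199 and 15311 genes of all biotypes were then expressed, 3146 to 3314 protein-coding genes had no count, and the 100 highest genes held 33.5% to 34.0%. Levels of single genes depended on the length used: of 528 named genes with a mean TPM of at least 1, 57 moved by over 1.5-fold with the longest transcript, 340 with the median transcript length and 302 with no length, and none with TMM factors or DESeq2 size factors. The numbers of list members expressed, recomputed by alternatives chosen after seeing the data, changed by at most 5. No paired analysis was possible because the result comes from no test between groups. Thinning to the smallest total left 11928 protein-coding genes expressed, against 11934 at full depth.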
